A study of Mus musculus with 3 samples.

Results

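Control-only regions are places in the genome that were listed as enriched after immunoprecipitation with an antibody against the HA tag, in mouse embryonic stem (ES) cells that carried no HA-tagged protein, and that lay far from the regions listed in the other libraries. Regions were chosen by their listed positions in the 3 libraries: one was taken where its start was at least 10 kb from every start of the ZFP57 list and every start of the KAP1 list on the same chromosome, on autosomes only. This held for 23891 of the 44488 autosomal control regions, or 53.7% (exact 95% binomial interval 53.2 to 54.2%), and for 52.0% of the whole control list of 45956 regions. Their absence from the neighbourhood of the other lists is the rule that chose them and is not a result.

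The series holds 3 chromatin immunoprecipitation sequencing (ChIP-seq) libraries of ES cells, with 1 library per group. The control library used the HA antibody in cells with no expressed transgene. For the ZFP57 library, HA was precipitated from cells expressing HA-tagged ZFP57. For the KAP1 library, KAP1 (RBCC) was precipitated from E14 ES cells, again with no transgene. The labels name E14 for the KAP1 library alone, so it is not known here whether the 3 cultures are the same line. All cells were grown in normal ES cell medium, and the files hold no measurement by which the cell type could be checked. With 1 library per group there is no replicate spread and no test between conditions was made. Intervals cover counting error only, and since regions cluster they are too narrow.

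In a ChIP with a tag antibody and no tagged protein there is no intended target, and the recovered DNA is the background of the method. Background of this kind is known to be uneven: chromatin that is open breaks more readily during sonication, solubilises more easily and is often over-represented, as are sequences present in more copies than the reference genome shows. ZFP57 is a KRAB zinc finger protein that maintains DNA methylation at imprinted loci, and KAP1 (TRIM28) is the corepressor that such proteins recruit. The lists carry no measure of accessibility, fragment length or copy number, so the part of open or sonication-prone chromatin in the control-only set was not tested. No genome of build mm9 was used here, so the regions are given by position, without sequence, and without genes.

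The mirrored rule, applied to each of the other libraries, left far fewer regions. It found 3795 ZFP57-only regions, 18.4% of the autosomal ZFP57 list, and 2931 KAP1-only regions, 15.1% of the autosomal KAP1 list. Over the 19 autosomes this came to 9.90 control-only, 1.57 ZFP57-only and 1.21 KAP1-only regions per Mb. The control list was the longest, so it closed off more sequence to the other 2 sets. The sequence left was 2150 Mb for control-only, 1827 Mb for ZFP57-only and 1806 Mb for KAP1-only regions. The shares therefore depend on list length. Depth and threshold of the 3 lists are unknown, so these shares and densities are not amounts of enrichment. Of the remaining autosomal control regions, 14807 lay within 10 kb of starts from both other lists (33.3%), 3877 were near ZFP57 starts alone (8.72%) and 1913 near KAP1 starts alone (4.30%).

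The limit of 10 kb did not fall at a break in the data. The member nearest the limit, on chromosome 19 from 39184057 to 39184206 (mm9), lay 10000 bp from a KAP1 start, and the nearest control region on the other side, on chromosome 10 from 120800952 to 120801101, lay 9998 bp from a KAP1 start. There were 362 control regions between 10000 and 11000 bp from the other lists and 396 between 9000 and 10000 bp. The median member lay 67.4 kb from the nearest start of either list, with quartiles of 31.9 and 137 kb. A total of 8447 members (35.4%) lay at least 100 kb away, 484 (2.03%) at least 500 kb away and 52 at least 1000 kb away. The farthest, on chromosome 6 from 76445647 to 76445796, was 1720 kb from the nearest ZFP57 start. Members were closer to a ZFP57 start in 15206 cases (63.6%) and closer to a KAP1 start in 8652, with 33 ties. The median distance was 92.6 kb to ZFP57 and 153 kb to KAP1. The autosomal lists held 20641 ZFP57 and 19373 KAP1 regions.

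Control regions thinned out with distance from the other lists, also among the members. Sequence at least 10 kb from every ZFP57 and KAP1 start made up 89.1% of the autosomal span (2150 of 2414 Mb), and the members had a density of 11.1 per Mb of it (95% Poisson interval 10.97 to 11.25). The excluded 264 Mb held 20597 control regions, 77.9 per Mb. Within the members' own range the density was 16.1 per Mb at 10 to 20 kb (15.6 to 16.7), 14.4 at 20 to 50 kb, 12.9 at 50 to 100 kb, 10.3 at 100 to 200 kb, 6.95 at 200 to 500 kb and 3.44 beyond 500 kb (3.14 to 3.76). The fall continued over every step beyond the limit, so the members nearest the other lists and those farthest away sat in sequence of different control density. How much of this sequence is mappable was not analysed here.

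**Figure D1:**
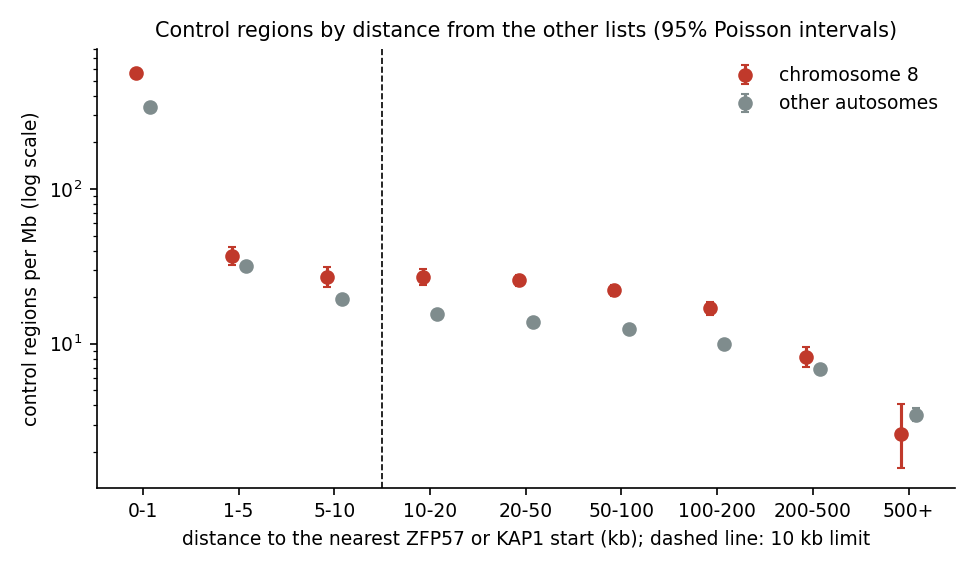
Control regions per Mb (log axis) against distance to the nearest ZFP57 or KAP1 start in kb, for chromosome 8 (red) and the other autosomes together (grey), with exact 95% Poisson intervals; the dashed line is the 10 kb limit, and control-only regions lie to its right. Over all autosomes the density falls from 16.1 per Mb at 10 to 20 kb to 3.44 beyond 500 kb, and chromosome 8 lies above the others except beyond 500 kb.

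Chromosome 8 held more control-only regions per Mb than any other autosome. It had 2092 members, 16.3 per Mb (95% Poisson interval 15.58 to 16.98), followed by chromosome 11 with 1612, 13.6 per Mb (12.9 to 14.2), and chromosome 9 with 1371, 11.3 per Mb. The lowest were chromosome 14 with 795, 6.51 per Mb (6.06 to 6.98), and chromosome 3 with 1176, 7.52 per Mb. The median of the other 18 autosomes was 9.31 per Mb, and chromosome 8 stood at 1.75 times that median. Chromosome 8 made up 5.33% of the autosomal span and held 8.76% of the members. The order of most autosomes in between is not resolved, since neighbours such as chromosome 5 (10.6 to 11.6) and chromosome 4 (10.1 to 11.1) have overlapping intervals. Counted per Mb of sequence at least 10 kb from the other lists, chromosome 8 again came first at 18.3 (17.5 to 19.1), against a median of 10.5 and a highest value of 15.3 on the other autosomes.

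**Figure D2:**
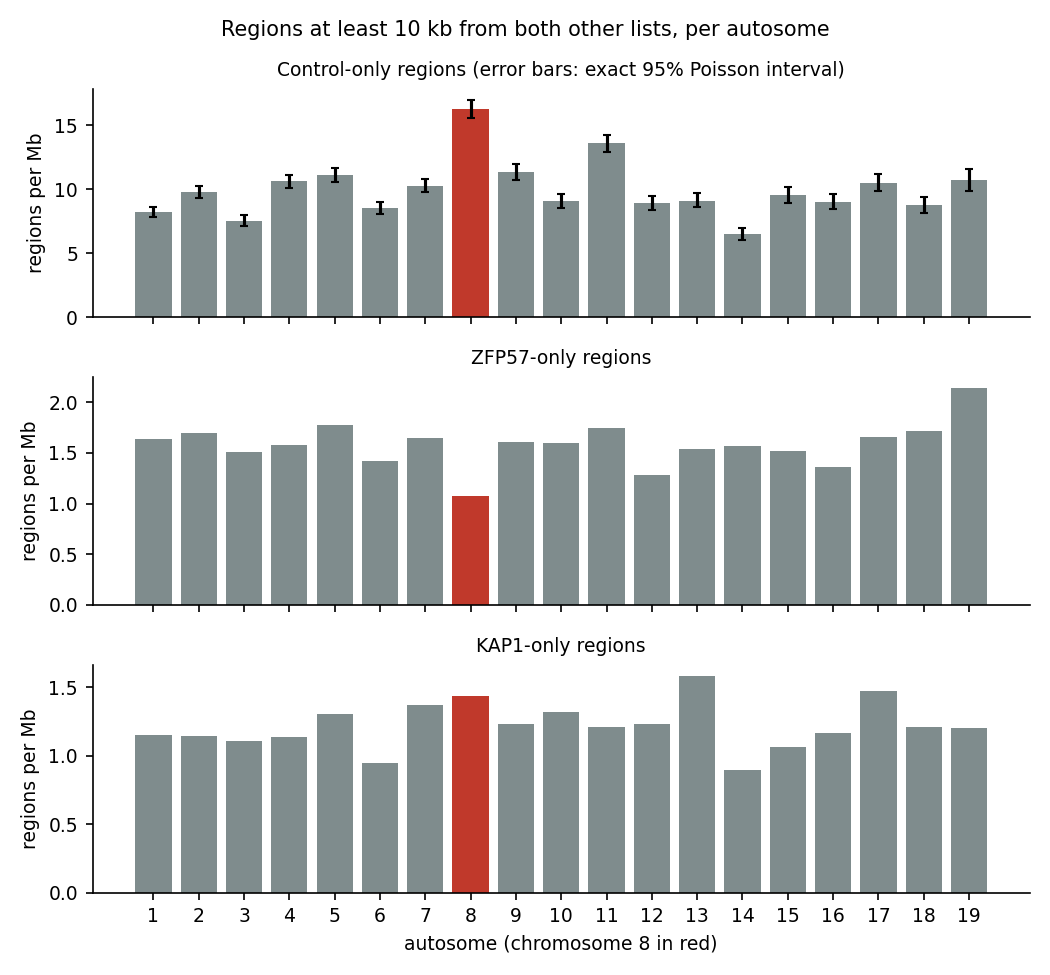
Regions per Mb on each autosome for the control-only set (top, with exact 95% Poisson intervals), the ZFP57-only set (middle) and the KAP1-only set (bottom), each at least 10 kb from both other lists; chromosome 8 is red. Chromosome 8 is highest in the control-only set (16.3 per Mb), lowest in the ZFP57-only set (1.07) and ranks 3 in the KAP1-only set (1.44).

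The ZFP57-only and KAP1-only sets did not rank chromosome 8 in the same place, although all 3 whole lists were dense there. Its 138 ZFP57-only regions gave 1.07 per Mb (0.901 to 1.27), the lowest of the 19 autosomes, where the others ranged from 1.28 to 2.14. Its 185 KAP1-only regions gave 1.44 per Mb (1.24 to 1.66), rank 3, where the others ranged from 0.900 to 1.59. A chromosome rich in control regions leaves less room for ZFP57-only regions, so the density was also counted over the sequence where each could lie. On that scale chromosome 8 had 1.61 ZFP57-only regions per Mb (1.35 to 1.90), still the lowest. The other autosomes had a median of 2.10 and a lowest value of 1.67. Chromosome 8 had 2.14 KAP1-only regions per Mb (1.84 to 2.47), rank 2. The others had a median of 1.58 and a highest value of 2.16. The 2 intervals include that lowest and that highest value, so neither place is resolved. Chromosome 8 also ranked 1 for control regions near KAP1 starts alone, at 1.56 per Mb and 2.29 times the median of the others. The highest other autosome stood close, at 1.52, and no interval is given, so that rank is not resolved. Control regions near ZFP57 starts alone were at 1.501 per Mb on chromosome 8, 0.958 times the median and in rank 12. The larger class near starts of both lists stood at 10.1 per Mb on chromosome 8, 2.43 times the median and in rank 2. Over whole lists, without the distance rule, chromosome 8 stood at 1.77 times the median of the other autosomes for the control, 1.71 times for ZFP57 and 2.24 times for KAP1. Its ranks in the same order were 2, 4 and 3. Gain of an extra chromosome 8 is a recurrent karyotype change of mouse ES cells in culture. The files give no copy number for any of the cultures, and its part in these densities was not tested.

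Member density was set against gene density per chromosome. Across the 19 autosomes, members per Mb and protein-coding genes per Mb (gene numbers from the RefSeq table of GRCm38, lengths from the spans of these lists) had a Pearson r of 0.50 and a Spearman rho of 0.78, and without chromosome 8 an r of 0.76 and a rho of 0.81 over 18 autosomes. These are descriptions across chromosomes of 1 library. Chromosome 11 was among the gene-richest, at 13.5 genes per Mb, and chromosome 14, with the fewest members per Mb, ranked 15 at 6.97. The gene-poorest, chromosomes 12 and 18 at 5.75 and 5.82 genes per Mb, held 8.92 and 8.73 members per Mb. Chromosome 8, with 8.11 genes per Mb, ranked 9 on that scale. A straight line through the other 18 autosomes put it at 9.33 members per Mb, 6.93 below its value, while those 18 lay between 2.28 below and 1.63 above the line. Chromosome 7, the gene-richest at 13.6 genes per Mb, held 10.3 members per Mb.

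The share of control regions that were members, 53.7% over all autosomes, also differed between chromosomes. It was 70.7% on chromosome 18 (67.9 to 73.4%), 70.6% on chromosome 2 and 67.8% on chromosome 19. It was 25.6% on chromosome 17 (24.23 to 27.04%), 43.5% on chromosome 13 and 47.3% on chromosome 1, and chromosome 8 stood at 55.3% (53.7 to 56.9%). The share was low in the densest blocks of control regions. Since the rule removes control regions near ZFP57 and KAP1 starts, the share depends on where those starts lie. Its fall in these blocks is not a separate result. In the 45 autosomal windows of 1 Mb where control regions numbered 100 or more, 381 of 9016 control regions were members, 4.23%, against 66.3% in all other windows. On chromosome 17, 9 such windows held 2214 of its 3783 control regions, and outside them the share was 55.2%. Those 45 windows made up 1.86% of the windows and held 1.59% of the members, 8.47 per window against 9.86 over all windows, so the number of members per window there was close to that of all windows.

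The X and Y chromosomes are outside the rule. By distance alone, 98 of 1068 control regions on X (9.18%, 0.599 per Mb) and 8 of 358 on Y would have passed.

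Members lay farther apart than control regions in general. The median distance from one member to the next was 47.0 kb (quartiles 16.4 and 113 kb), compared with 15.6 kb (1.71 and 56.5 kb) for all autosomal control regions and 1.81 kb for the control regions that were not members. The removal of regions near the other lists lengthens the gaps by construction. Another member lay within 1 kb of 4.90% of the members (exact 95% interval 4.63 to 5.18%), within 10 kb of 31.2% (30.6 to 31.7%) and within 50 kb of 73.9%, whereas in the whole autosomal control list 27.5% had a neighbour within 1 kb. ZFP57-only regions had a median spacing of 354 kb and KAP1-only regions one of 419 kb, and 2.19% and 9.21% of them had a neighbour of their own set within 1 kb. The KAP1-only share (8.19 to 10.3%) lay above that of the members although the set was sparser. At the other end, 2800 members (11.7%) had no other member within 100 kb.

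**Figure D3:**
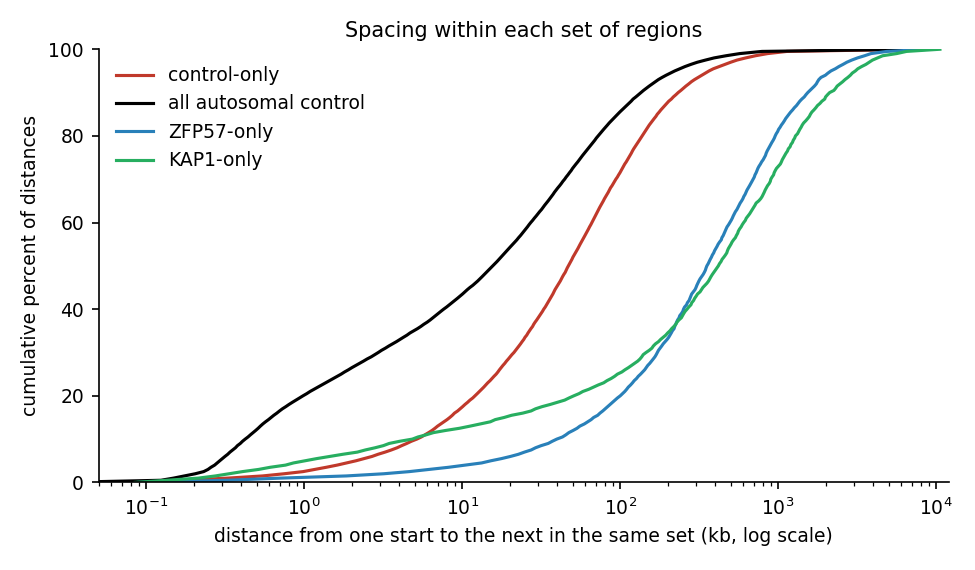
Cumulative percent of distances from one region start to the next (kb, log axis) within the control-only set (red), all autosomal control regions (black), the ZFP57-only set (blue) and the KAP1-only set (green). The median is 47.0 kb for control-only regions and 15.6 kb for all control regions; the control-only curve has few distances under 1 kb.

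Spacing was closer on chromosome 8. The median there was 28.0 kb, against 49.5 kb on the other autosomes together and 38.1 kb on chromosome 11, the next closest. Another member lay within 10 kb of 44.6% of the chromosome 8 members (42.5 to 46.8%) and of 29.9% of the others (29.3 to 30.5%). The share with a neighbour within 1 kb was 6.31% on chromosome 8 (5.31 to 7.44%) and 4.77% elsewhere (4.49 to 5.06%).

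At short range, 604 of the 23872 distances between successive members were 1 kb or less. In 89 of them the regions overlapped, with starts as little as 70 bp apart, in 1 they touched, and in 63 the starts were 151 to 200 bp apart. By steps of 50 bp, 73 distances fell between 100 and 150 bp and 63 between 150 and 200 bp, compared with 21 to 41 in each later step up to 1000 bp. Neighbouring calls of about 1 region width apart were thus the most frequent short distance. The peak caller is not given in the sources used here, and whether it splits 1 enriched stretch into several calls was not tested.

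Joined at gaps of up to 10 kb, the members formed 19732 runs. Of these, 16446 were single regions (68.8% of the members), 2622 were pairs, 509 held 3 members and 118 held 4. Only 37 runs held 5 or more, 202 members in all. Of the 37 runs, 11 lay on chromosome 8, which held 8.76% of all members. The 5 longest by number are named here, the last 2 being those of the 10 runs of 6 that come first by chromosome number read as text. On chromosome 5, 8 members stood between 122318392 and 122358534, a span of 40.1 kb that lay 64.7 kb from the nearest region start of the other lists. On chromosome 15, 7 members stood between 100183764 and 100196624 (12.9 kb), 12.5 kb from the other lists. On chromosome 7, 7 members stood between 148053765 and 148083790 (30.03 kb). On chromosome 12, 6 members stood within 7.31 kb between 114543148 and 114550454, the shortest of the 5 spans. On chromosome 17, 6 members stood between 34275476 and 34301622 (26.1 kb), 13.5 kb from the other lists. Of the 287 sets of 3 successive members with both distances under 5 kb, 0 had the same pair of distances to the base as another, in either order. Whether members lie in repeated sequence was not tested.

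The windows of 1 Mb showed where the members gathered. The 19 autosomes made 2424 windows, with a median of 8 members (quartiles 3 and 15) and a maximum of 43, and 80 windows (3.30%) held 0. At least 5 members were found in 69.5% of the windows. The variance of the counts was 5.95 times their mean, where random scatter at a uniform density would give about 1. The 295 windows with 20 or more members (12.2% of the windows) held 30.5% of the members. Counts of adjacent windows went together, with a Spearman rho of 0.60 over 2405 pairs of neighbours within 1 library, given as a description.

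Chromosome 8 had its own distribution of windows. Its 129 windows had a median of 15 members, against 8 in the 2295 windows of the other autosomes. There were 54 with 20 or more members (41.9%, against 10.5% elsewhere), and these held 73.2% of the chromosome's members. Of the 40 windows with 30 or more members, 23 lay on chromosome 8, 3 on chromosome 11, 2 each on chromosomes 4 and 7, and 1 each on 10 further autosomes. Windows with few members were present as well, with 2 empty ones and 14 of 0 to 2 members, so the high density was not even along the chromosome.

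**Figure D4:**
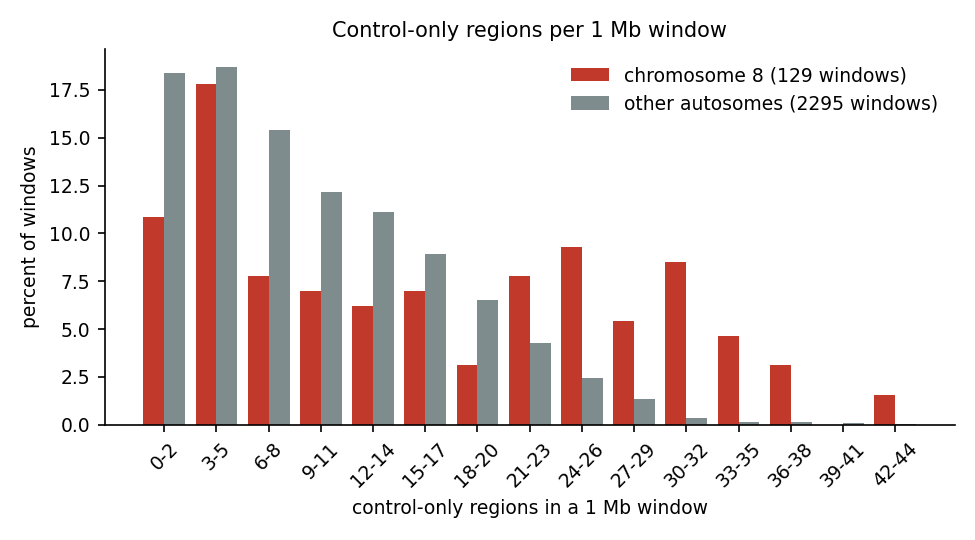
Percent of 1 Mb windows (vertical axis) by number of control-only regions they hold (horizontal axis, steps of 3), for the 129 windows of chromosome 8 (red) and the 2295 windows of the other autosomes (grey). Windows with 30 or more regions number 23 on chromosome 8 and 17 on the other autosomes together.

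The 10 windows with the most members lay on 6 chromosomes, 5 of them on chromosome 8. That number was 3 with a distance limit of 20 kb, 2 with 50 kb, 0 when only overlap with the other lists was excluded and 8 with windows of 2 Mb. The window of chromosome 2 from 29 to 30 Mb came first with 43 members (95% Poisson interval 31.1 to 57.9) among 46 control regions, with 5 ZFP57 regions and 1 KAP1 region. Chromosome 8 followed with 42 members of 54 control regions from 125 to 126 Mb and 42 of 46 from 129 to 130 Mb (each 30.3 to 56.8). The former also held 5 ZFP57 and 11 KAP1 regions and the latter 6 and 2. Chromosome 7 from 148 to 149 Mb held 39 members of 49 control regions. Chromosome 9 from 64 to 65 Mb held 39 of 39, with 2 ZFP57 regions and 0 KAP1 regions. Windows of 38 members began at 139 Mb of chromosome 4, at 26 and 127 Mb of chromosome 8 and at 66 Mb of chromosome 17. Chromosome 8 from 123 to 124 Mb held 37 members of 38 control regions, tied with chromosome 15 from 79 to 80 Mb (37 of 39), which the limit of 10 left out. All these intervals overlap, so the order within the list is not resolved.

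High windows stood side by side. Windows with 20 or more members formed 175 blocks, of which 118 were single windows. The longest, chromosome 8 from 119 to 130 Mb, was 11 Mb long and held 361 members among 455 control regions (79.3%), with 59 ZFP57 and 58 KAP1 regions. The next was chromosome 4 from 130 to 140 Mb, with 262 members of 338 control regions, followed by chromosome 8 from 106 to 115 Mb, with 262 of 384. Blocks of 6 Mb lay on chromosome 8 from 86 to 92 Mb (180 members) and from 23 to 29 Mb (170), and on chromosome 2 from 27 to 33 Mb (159).

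Along chromosome 8 the density of members was uneven. Its span was divided into 10 equal parts of 12.9 Mb, numbered from the lowest position. Part 10 held 29.3 members per Mb (26.4 to 32.4) and part 7 held 23.9 (21.3 to 26.7), where the highest values on other autosomes were 19.1 and 18.9. Part 9 held 24.3 (21.6 to 27.1), not resolved from the highest other autosome at 24.1. Part 8, between them, held 12.4 (10.6 to 14.5), rank 6 among the autosomes and below parts 1, 2 and 6 with 15.7, 14.6 and 15.6. Part 4 held 11.8. Parts 3 and 5 held 7.54 (6.12 to 9.20) and 7.46 (6.05 to 9.12), near the medians of 8.09 and 8.02 on the other autosomes. Chromosome 8 stood above the median of the others in 8 of the 10 parts. On those others the median was 7.82 in part 1, 8.98 in part 8, 12.01 in part 9 and 12.6 in part 10. The excess of chromosome 8 also varied with distance from the other lists. It had 27.2 control regions per Mb at 10 to 20 kb, against 15.5 on the other autosomes, and 22.2 against 12.4 at 50 to 100 kb. At 200 to 500 kb the values were 8.24 (7.10 to 9.52) and 6.88 (6.63 to 7.14), and beyond 500 kb they were 2.61 (1.57 to 4.08) and 3.49 (3.18 to 3.82), with overlapping intervals.

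**Figure D5:**
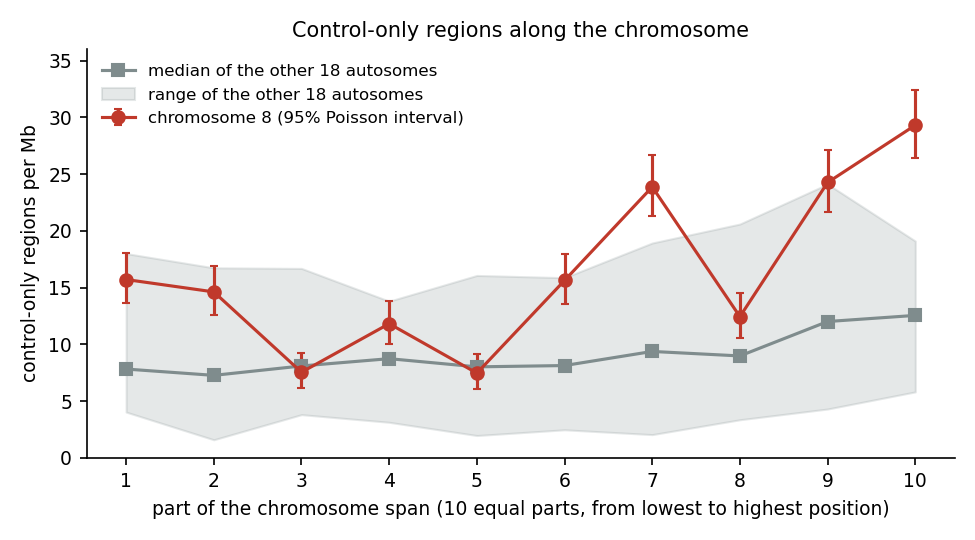
Control-only regions per Mb (vertical axis) in each of 10 equal parts of the chromosome span, for chromosome 8 (red, exact 95% Poisson intervals) and for the other 18 autosomes (grey squares, median; shaded, range). Chromosome 8 is above the range of the others in parts 7 and 10, level with their highest in part 9, and near their median in parts 3 and 5.

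Some windows held control-only regions and no other control region. In 1022 windows control regions numbered 15 or more, and there the median share of members was 75.0%. It was 100% in 54 windows and at least 90% in 185, and 7 windows had 0 members. Of the 185, 23 lay on chromosome 8, but how many of the 1022 lay there is not given here. Over all its control regions, chromosome 8 had a share of 55.3%, rank 12 among the autosomes. The 10 windows of 100% with the most members began, on chromosome 9, at 64 Mb (39 regions) and 14 Mb (27), and on chromosome 11 at 72 Mb (28) and 80 Mb (25). The rest began at 113 Mb of chromosome 6 (32), 6 Mb of chromosome 19 (29), 109 Mb of chromosome 12 (28), 117 Mb of chromosome 8 (25), 39 Mb of chromosome 1 (22) and 128 Mb of chromosome 5 (22). The exact 95% interval was 91.0 to 100% for 39 of 39 and 84.6 to 100% for 22 of 22. The windows were picked for their share of 100%, and the intervals do not allow for that choice. These windows were not free of the other libraries: the one on chromosome 19 contained 5 KAP1 and 0 ZFP57 regions, and the one on chromosome 1 contained 5 ZFP57 regions and 1 KAP1 region, each at least 10 kb from the control regions there.

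By the rule, every member lies in a stretch without a ZFP57 or KAP1 start, which is not in itself a result. The number of such stretches without members is not given here. Members fell into 6723 such stretches, with a median length of 0.190 Mb, and 397 stretches with 10 or more members held 22.6% of the set. Of these, 57 lay on chromosome 8, which held 8.76% of all members. How many of the 6723 stretches lay there is not given here. The stretch with the most, chromosome 5 from 139596448 to 140814076, held 34 members over 1.22 Mb. Chromosome 1 from 92299773 to 94383431 held 33 over 2.08 Mb, and chromosome 2 from 29184071 to 29741975 held 30 over 0.558 Mb, or 53.8 per Mb. On chromosome 11 there were 29 members between 111586792 and 113380155 and 27 between 75436965 and 76409485. On chromosome 9 there were 27 between 64204369 and 64865606 and 25 between 13927931 and 14965884. Chromosome 12 had 28 between 109011508 and 110040790, and chromosome 15 had 27 between 78583650 and 79435984. The densest of the 10 was on chromosome 8 from 91263845 to 91683678, with 24 members over 0.420 Mb, 57.2 per Mb.

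Long gaps between members were of different kinds. The longest, on chromosome 7 between members starting at 39151820 and 46700883, was 7.55 Mb long and held 294 control regions that were not members, 317 ZFP57 and 352 KAP1 regions. The 3.23 Mb gap on chromosome 1 (84367618 to 87594151) contained 953 regions of the control, 933 of ZFP57 and 992 of KAP1. In contrast, the 3.39 Mb gap on chromosome 6 (78202285 to 81594526) contained 3 KAP1 regions and 0 of either other list, and the 3.82 Mb gap on chromosome 15 (19306030 to 23130801) contained 3 control, 6 ZFP57 and 8 KAP1 regions. Members were missing both where all 3 libraries were dense and where all 3 were sparse. In the dense gaps the rule itself removes control regions near the other lists, so their lack of members is not a separate result.

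ZFP57-only and KAP1-only regions were also counted in windows grouped by their number of members. The mean number of ZFP57-only regions was 0.475 in the 80 windows with 0 members, 0.886 with 1 to 4, 1.52 with 5 to 9, 2.15 with 10 to 19 and 1.94 with 20 or more. The mean number of KAP1-only regions in the same order was 0.800, 0.999, 1.37, 1.28 and 1.28. Counts of all ZFP57 and KAP1 regions depended on the summary used. Their means were 26.4 and 31.2 in windows with 0 members, 7.03 and 7.81 with 1 to 4, 8.002 and 7.744 with 5 to 9, 8.39 and 6.28 with 10 to 19, and 8.39 and 7.10 with 20 or more. Their medians in the same order were 1 and 1, 1 and 1, 3 and 2, 5 and 3, and 5 and 3. The 3 sets exclude each other within 10 kb, which lowers their joint counts in a window.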

How the data were processed

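The authors deposited 1 list of regions per library with chromosome, start and end, and no header, score, count or depth. Every region is 150 bp wide and 0 are duplicated. Bowtie and build mm9 are named per the submitters' processing notes. Not given in the sources used here are the version, peak caller, threshold, handling of reads with several matches and any control subtraction. A list's length moves with depth and threshold. Precision is limited by these unknowns beyond the counting intervals.

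Distances were measured between starts. Positions are printed 1-based. A chromosome's span runs from the lowest to the highest position in any list, and windows of 1 Mb count regions by start. Intervals are exact (Clopper-Pearson binomial, or Poisson) at 95%. The members, the chromosome 8 comparison and the listed windows were chosen with earlier results of these data known. Named items followed rules: the top 10 windows by members, by share (at least 15 control regions) and stretches, and the top 5 runs; blocks, gaps and the farthest region were named after their values were seen. The code was tested on simulated lists. Gene numbers came from the GRCm38 RefSeq table, without coordinates. Python 3.11.15, numpy 2.4.6, pandas 2.3.3, scipy 1.17.1 and matplotlib 3.10.9 were used.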

Additional observations from a re-analysis of the deposited data

How the results depend on the processing

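No paired analysis was possible because every group is a single library, which also leaves no replicate to omit. A stricter threshold, gene distance and sequence composition were not run, since the lists hold no score and no mm9 genome was used. Chromosome 8 stayed the densest autosome, 1.15 to 1.20 times chromosome 11, with limits of 5, 20 and 50 kb and after merging. Over the whole control list, where no distance rule applied, it ranked 2 at 29.4 regions per Mb. Its rank when only overlap was excluded is not given here. Merging touching control regions left all 7 results within their intervals or within 1.5 times. The number of members was 14498 at 50 kb, and 26133, 20780 and 32740 at 5 kb, 20 kb and with no overlap of 1 bp in place of the distance. In the order 5 kb, 20 kb, 50 kb and no overlap, members per Mb of chromosome 8 were 17.6, 13.96, 9.11 and 20.6; at the reported 10 kb it was 18.3 over eligible sequence. Members per eligible Mb were 11.6, 10.6, 9.53 and 13.6. Median spacing was 42828, 52127, 59156 and 30369 bp. The share with a neighbour within 10 kb was 32.1, 30.6, 29.0 and 41.4%, and with a neighbour counted within 1 kb or 50 kb it was 4.90 or 73.9%. Windows with at least 5 members were 71.5, 66.8, 52.8 and 74.0%. Stricter distance keeps fewer regions by construction. The number of chromosome 8 windows among the top 10 was 5 as reported, 6, 3, 2 and 0 in the same order, 7 with windows shifted by 0.5 Mb and 8 with 2 Mb windows. With no distance, control regions within 10 kb of the other lists that do not overlap them enter the set. Where these lie, and whether they displace the chromosome 8 windows, was not tested. Measured to 1 list alone, the number of members was 25804 for ZFP57 and 27768 for KAP1.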
